A study of Mus musculus with 12 samples.

Results

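Osteoblast differentiation genes were followed in mesenchymal stem cells of mouse marrow, which can form fat, bone or cartilage, after 14 days in fat-inducing medium. The set was chosen by gene symbol and holds 9 of the 23955 symbols in the deposited count table: Runx2, Sp7, Dlx5, Alpl, Spp1, Ibsp, Bglap, Postn and Tnfrsf11b. In the study, cells of female C57BL/6 mice at passages 9 to 10, sold as a commercial stock, were grown to confluence and then given insulin at 5 ug/mL, dexamethasone at 1 uM and isobutylmethylxanthine at 0.5 mM. The vehicle group (DMSO) received DMSO at 0.1% with this cocktail. The ROSI group received rosiglitazone at 500 nM and the TBT group tributyltin at 50 nM, and each group had 4 libraries. Every group therefore shares dexamethasone and the other fat-inducing agents, and no library came from undifferentiated or bone-induced cells. Rosiglitazone activates PPARγ, the receptor that drives fat-cell formation, and tributyltin binds both PPARγ and its partner, the retinoid X receptor. Of the 9 genes, 5 had enough reads to be tested (Runx2, Alpl, Spp1, Postn and Tnfrsf11b), and 4 did not (Sp7, Dlx5, Ibsp and Bglap).

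Marrow stromal cells choose between fat and bone. RUNX2 is the transcription factor that starts the bone program, DLX5 is a homeobox factor upstream of it, and SP7 (osterix) acts after RUNX2 and is needed to form osteoblasts. Early osteoblasts make ALPL, the tissue-nonspecific alkaline phosphatase that frees phosphate for mineral, and a matrix with SPP1 (osteopontin) and POSTN (periostin). Mature osteoblasts add IBSP (bone sialoprotein) and BGLAP (osteocalcin). TNFRSF11B (osteoprotegerin) is a secreted decoy receptor that traps RANKL, the signal by which osteoblast lineage cells call up bone-resorbing osteoclasts.

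The stretches upstream of 3 matrix genes are shown because the same RUNX letters stand before a matrix gene that was read at a high level (Spp1) and one that was scarcely read (Bglap), while Postn lacks them. Each is the 250 bases before the RefSeq transcript start (GRCm38.p6), 5′ to 3′ on the gene's strand. Capitals mark the RUNX core TGTGGT, searched on both strands and found here as its reverse complement.
Spp1, chr5:104434861-104435110, + strand: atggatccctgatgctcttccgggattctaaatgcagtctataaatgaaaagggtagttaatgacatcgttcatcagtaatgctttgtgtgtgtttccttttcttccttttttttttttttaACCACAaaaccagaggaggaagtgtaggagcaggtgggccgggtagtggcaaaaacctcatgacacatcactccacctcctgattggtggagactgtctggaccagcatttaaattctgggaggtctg
Bglap, chr3:88384467-88384716, - strand: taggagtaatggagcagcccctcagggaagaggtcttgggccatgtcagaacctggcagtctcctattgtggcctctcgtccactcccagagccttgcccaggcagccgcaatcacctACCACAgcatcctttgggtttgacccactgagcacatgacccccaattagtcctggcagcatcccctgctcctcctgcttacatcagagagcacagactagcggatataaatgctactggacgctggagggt
Postn, chr3:54359017-54359266, + strand: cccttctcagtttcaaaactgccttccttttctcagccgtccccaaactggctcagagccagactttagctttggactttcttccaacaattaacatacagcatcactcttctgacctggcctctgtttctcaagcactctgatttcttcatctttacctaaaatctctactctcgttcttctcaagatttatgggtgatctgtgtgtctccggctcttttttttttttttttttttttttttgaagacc
The match lay 123 to 128 bases before the start of Spp1 and 127 to 132 bases before that of Bglap. Of 32851 such windows in the RefSeq table, 14.0% hold TGTGGT on either strand, so a match by itself is common. Windows were found for 6 of the 9 genes, Runx2, Alpl, Spp1, Ibsp, Bglap and Postn, and 3 of these had a match (Runx2, Spp1 and Bglap). The single nuclear receptor motif AGGTCA, which 14.0% of windows hold, was present before Runx2 and, on the other strand, before Postn. The direct repeat 1 element, to which PPARγ binds together with the retinoid X receptor, was in 0 of the 6 windows and in 0.0335% of all windows. These are matches of letters in short windows, not measured binding.

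Totals were 4074568 to 7111542 counts per library in DMSO, 4027152 to 7474654 in ROSI and 4639929 to 5988715 in TBT, and 12323 symbols passed the filter on low counts. Levels are in CPM, a count as a share of its library's total over tested genes after TMM scaling. Nothing in the labels ties a library to its own culture, so each p-value reflects library-to-library spread that could be technical. TBT replicate 4 stood apart: it correlated with the other TBT libraries at a mean r of 0.953 and with the DMSO libraries at 0.961, across genes. The ribosomal RNA precursor Rn45s, left over after ribosomal RNA removal, took 6.85% of its counts, against 0.399% to 0.670% in the other TBT libraries, 2.64% to 6.18% in DMSO and 1.36% to 9.27% in ROSI. The part of Rn45s in the TBT results was not tested. Reads on 1498 sensory receptor genes, which most tissues do not express, made up 295 to 776 CPM of each whole library in DMSO, 62.8 to 76.8 in ROSI and 115 to 195 in TBT, so low counts in DMSO stand on a higher background. The fat-cell genes Pparg, Cebpa, Fabp4, Plin1, Adipoq and Lpl, 6 in all, summed to 951 to 1860 CPM in DMSO, 3860 to 5450 in ROSI and 2000 to 3230 in TBT. Lpl and Fabp4 made up most of these sums. Of the 6, 4 were higher and 0 lower in ROSI against DMSO (edgeR adjusted p under 0.05). In TBT 3 were higher (Fabp4, Plin1 and Lpl) and 1 lower, Adipoq (log2 fold change -2.17 ± 0.29, edgeR adjusted p = 1.9e-04). The shares over all tested genes were 10% higher and 12.6% lower with ROSI, and 8.22% and 7.03% with TBT. Cebpa was at 22.1 CPM in DMSO and 21.7 in TBT (edgeR adjusted p = 0.90). In bulk RNA, fewer cells of a type and less RNA per cell cannot be told apart.

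The osteoblast label was met in part. Runx2, Alpl, Spp1 and Postn were read in all 12 libraries, while the genes that mark a committed or mature osteoblast were at or near 0. Sp7 had 2 counts in all 12 libraries together, 1 in DMSO replicate 3 and 1 in ROSI replicate 2. Dlx5 had 0 counts among 65290948, which allows a level of up to 0.046 CPM of all counts (3 counts of the total, counting error only). Ibsp had 5 counts in the DMSO libraries together, 0 in ROSI and 2 in TBT. Bglap had 6, 4 and 6 counts, and its near-identical neighbours Bglap2 (3, 0 and 3) and Bglap3 (2, 4 and 2), between which reads of the cluster cannot be assigned with certainty, were as low. None of these 4 genes had more than 5 counts in any library. Fitted without a filter, Ibsp, Bglap and Sp7 had edgeR adjusted p between 0.13 and 1 over the 3 comparisons, with the lowest for Ibsp in ROSI against DMSO, and at this depth a difference in them was not detectable.

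Placed on a scale per length (mean CPM per kilobase of exon in GENCODE M21), Spp1 was the most abundant of the 9 in DMSO at 245 ± 54.7 (SD, n = 4), followed by Runx2 at 24.4 ± 2.30. Alpl at 6.62 ± 0.873 and Postn at 5.10 ± 1.10 followed, with mean ± SD ranges that overlapped at their ends. Tnfrsf11b at 1.00 ± 0.625 and Bglap at 0.440 ± 0.390 came next and also overlapped, then Ibsp at 0.107 ± 0.0822 and Sp7 at 0.0102. ROSI kept Spp1 first at 56.3 ± 8.80 and Runx2 second at 19.4 ± 3.36, with Postn at 4.88 ± 1.07 and Alpl at 4.76 ± 0.694 within each other's spread. With TBT, Postn stood at 11.8 ± 3.68 against 7.49 ± 2.14 for Alpl, behind Spp1 at 117 ± 30.2 and Runx2 at 24.0 ± 4.33. The annotation differs from the one behind the counts, and 18.8% of the exon bases of Spp1 are shared with the same-strand gene model Gm42793 and 5.87% of those of Runx2 with the antisense gene Runx2os1, whose reads cannot be told apart in libraries without strand.

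**Figure D1:**
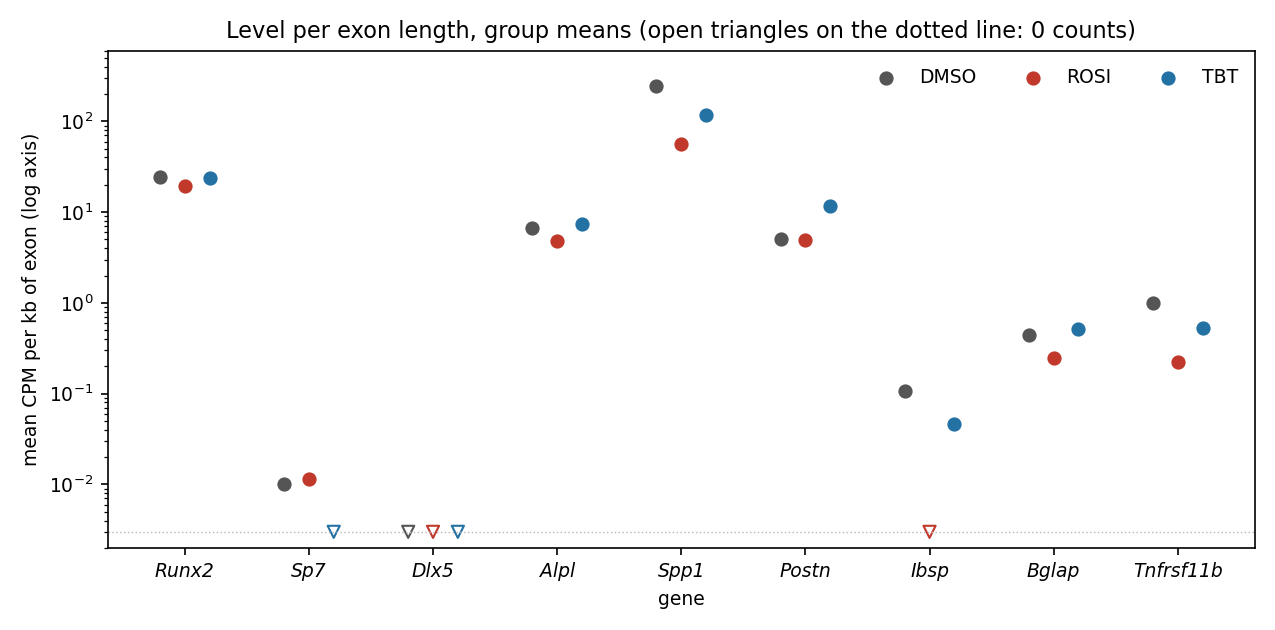
Mean level of each of the 9 genes per kilobase of exon (log axis) in DMSO, ROSI and TBT, n = 4 libraries each. Spp1 and Runx2 lead in each group, and Dlx5 has 0 counts in all 12 libraries.

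Spp1 lies in a run of bone and tooth matrix genes, and it had far more reads than the others of that run. In RefSeq order the protein-coding genes before it are Dspp, Dmp1, Ibsp and Mepe, and the one after it is Pkd2, a broadly expressed channel gene. Summed over the 4 DMSO libraries, Spp1 had 8580 counts, Dspp 8, Dmp1 0, Ibsp 5 and Mepe 8, while Pkd2 had 10872. In ROSI the sums were 2180 for Spp1, 1, 0, 0 and 1 for the 4 genes before it and 8678 for Pkd2. TBT gave 3890 for Spp1, 0, 1, 2 and 0 for those 4 and 8560 for Pkd2.

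Rosiglitazone lowered the matrix gene Spp1 and left Postn near its DMSO level. The decoy receptor Tnfrsf11b was also called lower, on few counts, in overlapping libraries and with a call that 1 library could end. Of the 5 genes tested, 2 fell, 0 rose and 3 did not pass (edgeR quasi-likelihood test, Benjamini-Hochberg adjusted p under 0.05), against 22.6% of all 12323 genes called in either direction and 12.6% called lower. Spp1 stood at 500, 406, 283 and 425 CPM in DMSO replicates 1 to 4, and at 85.0, 79.2, 112 and 94.7 in the ROSI libraries. Each ROSI library was below each DMSO library, as it was for 3 of the 5 genes. Of all tested genes, 15.4% lay apart in that direction and 13% in the other. The log2 fold change was -2.12 ± 0.21 (SE, edgeR adjusted p = 1.8e-06), a level 23.0% of that in DMSO, and 1.55% of tested genes had a more negative fold change.

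Tnfrsf11b was at 0.713, 4.91, 2.35 and 3.32 CPM in DMSO and at 0.501, 0.790, 0 and 1.20 in ROSI. These are 3 to 21 counts per DMSO library and 0 to 6 per ROSI library, and the groups overlap through DMSO replicate 1. The log2 fold change was -2.24 ± 0.64 (edgeR adjusted p = 0.017). The call ended without DMSO replicate 2 (-1.90, edgeR adjusted p = 0.060) or ROSI replicate 3 (-1.69, edgeR adjusted p = 0.052), and the gene did not pass the filter without DMSO replicate 3 or 4. Background reads on sensory receptors were also lower in ROSI than in DMSO. They were highest in DMSO replicate 1 (776 CPM), which had the lowest Tnfrsf11b of its group, at 3 counts. The part of this background in the fall of Tnfrsf11b was not tested.

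Runx2, the master factor of the set, was at 242.1, 217.6, 211.9 and 192.8 CPM in DMSO and at 176.5, 127.8, 192.5 and 187.8 in ROSI. The highest ROSI library lay just under the lowest DMSO library. The log2 fold change of -0.34 ± 0.15 missed the threshold (edgeR adjusted p = 0.13, 95% interval -0.64 to -0.04). Alpl was at 28.8, 30.6, 24.2 and 23.4 CPM in DMSO and at 22.8, 16.6, 19.9 and 17.4 in ROSI. Its libraries did not overlap either, and its log2 fold change was -0.48 ± 0.19 (edgeR adjusted p = 0.081). Alpl passed in a fit of the DMSO and ROSI libraries alone (edgeR adjusted p = 0.029) and without TBT replicate 4 (0.024). Postn was at 58.2, 43.0, 38.4 and 37.8 CPM in DMSO and at 37.4, 32.5, 47.0 and 53.2 in ROSI, 2 overlapping sets (log2 fold change -0.05 ± 0.21, 95% interval -0.47 to 0.36, edgeR adjusted p = 0.90).

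**Figure D2:**
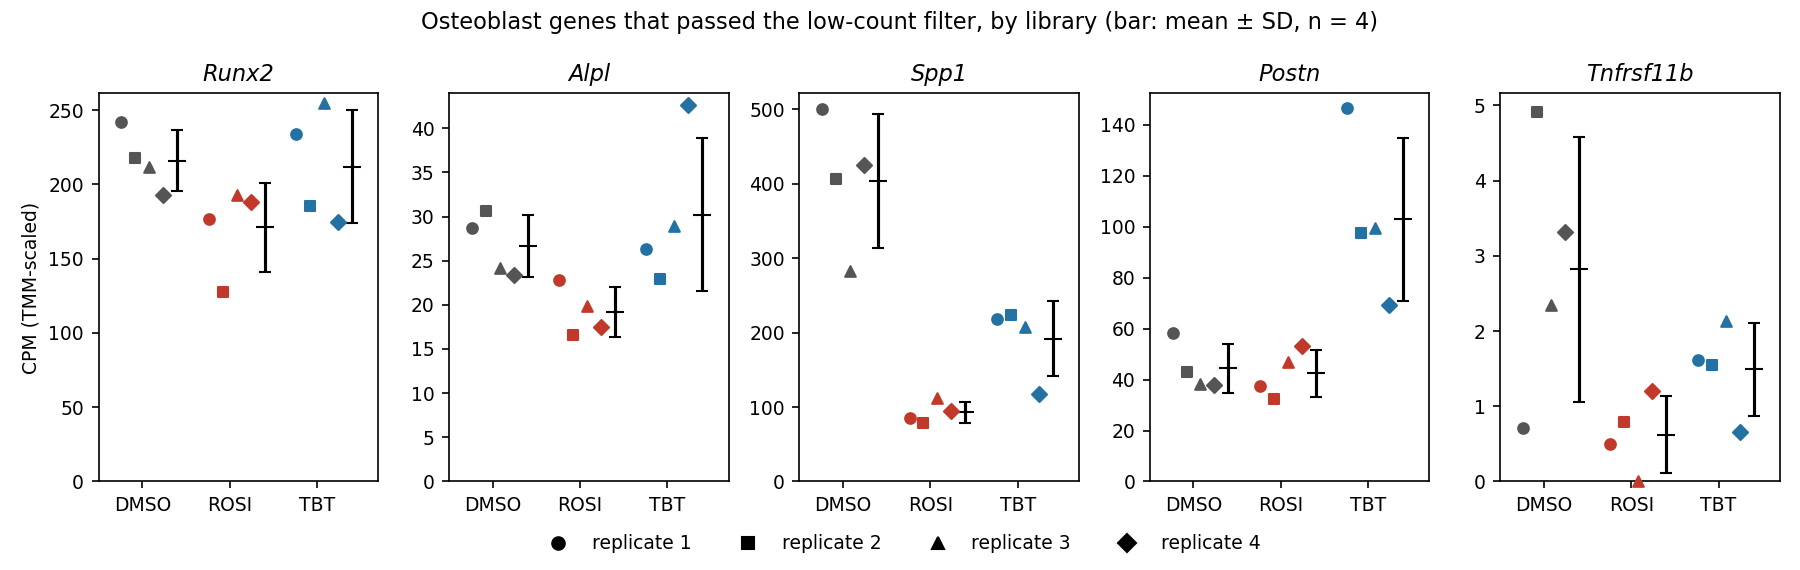
CPM of the 5 tested osteoblast genes in each of the 12 libraries, with linear axes from 0; marker shapes give the replicate and bars the mean ± SD of 4 libraries. Spp1 falls from 283 to 500 CPM in DMSO to 79.2 to 112 in ROSI and 118 to 224 in TBT, and Postn stands at 69.4 to 147 CPM in TBT.

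Tributyltin moved the matrix genes in opposite directions: Spp1 fell and Postn rose. Of the 5 genes tested, 1 rose, 1 fell and 3 did not pass, against 15.2% of all tested genes called (8.22% higher and 7.03% lower). Both comparisons use the same DMSO libraries. Over all genes, 4124 of 12635 were called in TBT against DMSO without TBT replicate 4, and 1879 of 12323 with it. Spp1 was at 218, 224, 207 and 118 CPM in TBT replicates 1 to 4, each below the lowest DMSO library at 283 (no overlap, lower, in 8.26% of tested genes). The log2 fold change was -1.07 ± 0.20 (edgeR adjusted p = 0.0026), a level 47.6% of that in DMSO. TBT replicate 4 was the lowest of its group, and without it the log2 fold change was -0.88 (edgeR adjusted p = 5.7e-04).

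Postn was at 147, 97.7, 99.7 and 69.4 CPM in TBT, each above the highest DMSO library at 58.2 (no overlap, higher, in 7.42% of tested genes). The mean went from 44.4 ± 9.53 to 103 ± 32.0 CPM (SD, n = 4), a log2 fold change of 1.23 ± 0.21 (edgeR adjusted p = 0.0015). Of the tested genes, 99.0% had a lower fold change in this comparison. For Postn, TBT replicate 4 was the library of its group nearest to DMSO, whereas for Spp1 it was the farthest. Without it the Postn log2 fold change was 1.39 (edgeR adjusted p = 3.7e-05). Spp1 and Postn thus passed in opposite directions with and without that library.

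Runx2 was at 234, 186, 255 and 175 CPM in TBT, a range that holds all 4 DMSO libraries (log2 fold change -0.02 ± 0.15, 95% interval -0.32 to 0.27, edgeR adjusted p = 0.93). Alpl was at 26.3, 23.0, 28.9 and 42.6 CPM in TBT, with the highest value in replicate 4 (0.18 ± 0.18, edgeR adjusted p = 0.53), and without that library its log2 fold change was -0.02. Tnfrsf11b was at 1.61, 1.54, 2.14 and 0.652 CPM in TBT, 3 to 10 counts per library (-0.91 ± 0.56, edgeR adjusted p = 0.27), with a 95% interval from -2.0 to 0.18.

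**Figure D3:**
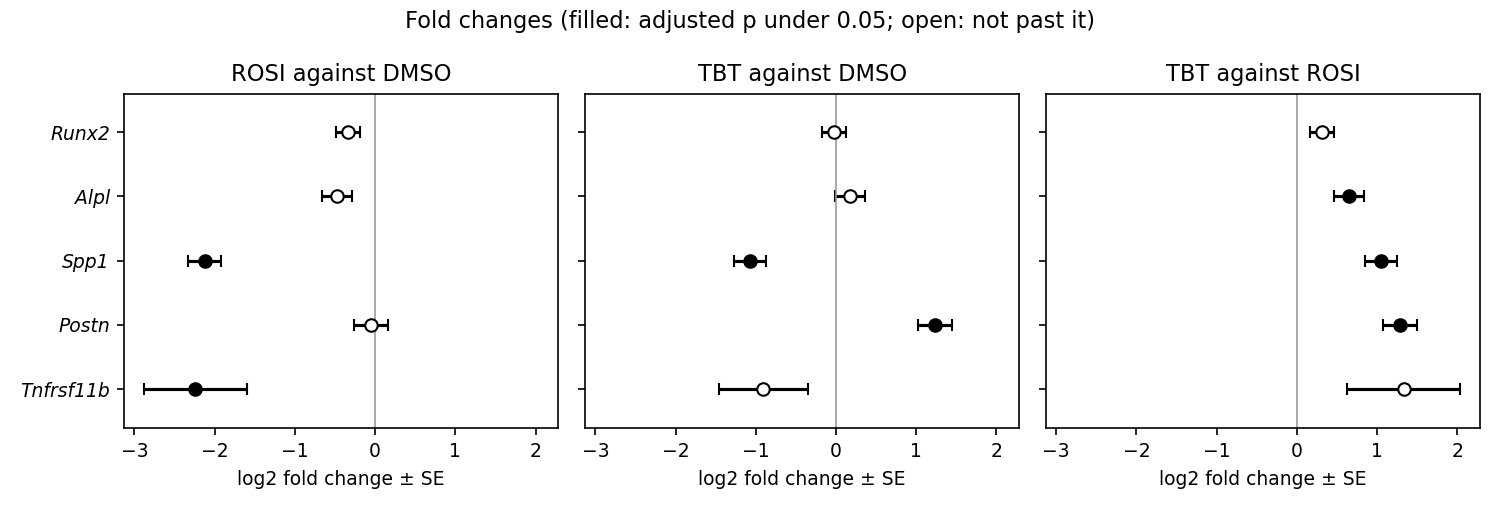
Log2 fold change ± SE of the 5 tested genes in each comparison, filled where the edgeR adjusted p was under 0.05. Spp1 is lower under both ligands against DMSO, Postn is higher under TBT against both other groups, and Runx2 is open in all 3 panels.

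Set against each other, the ligands differed in the matrix genes Spp1 and Postn and in the phosphatase Alpl, which were higher with TBT. Of the 5 genes, 3 were higher in TBT than in ROSI and 2 did not pass, against 23.9% of tested genes called and 12.8% called higher. Postn differed by 1.28 ± 0.21 on the log2 scale (edgeR adjusted p = 4.1e-04), and each TBT library was above each ROSI library. Spp1 differed by 1.05 ± 0.20 (edgeR adjusted p = 0.0014), 192 ± 49.8 CPM in TBT against 92.8 ± 14.5 in ROSI (SD, n = 4). The lowest TBT library, at 117.9 CPM, was close to the highest ROSI library, at 112.3. Of all tested genes, 10.9% lay apart with TBT higher and 9.89% with TBT lower. Alpl was 30.2 ± 8.64 CPM in TBT and 19.2 ± 2.80 in ROSI (0.65 ± 0.19, edgeR adjusted p = 0.019). This call was lost without ROSI replicate 2 (0.59, edgeR adjusted p = 0.064) or ROSI replicate 4 (0.60, edgeR adjusted p = 0.054). Runx2 differed by 0.31 ± 0.15 (edgeR adjusted p = 0.14) and passed without TBT replicate 4 (0.40, edgeR adjusted p = 0.035). Tnfrsf11b differed by 1.33 ± 0.70 (edgeR adjusted p = 0.18).

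Within a library, the ratio of Spp1 to Postn reads needs no scaling between libraries. It was chosen for display after the values were seen, and is given as a description. DMSO libraries had 8.59, 9.43, 7.37 and 11.3 Spp1 reads per Postn read. In ROSI the ratios were 2.28, 2.43, 2.39 and 1.78, and in TBT 1.49, 2.30, 2.08 and 1.70. The ROSI and TBT ratios overlapped and lay below those of DMSO, while the single genes differed: Spp1 fell under both ligands and Postn rose with TBT. Spp1 reads per Runx2 read ran from 1.34 to 2.21 in DMSO, 0.482 to 0.619 in ROSI and 0.674 to 1.21 in TBT. Postn reads per Runx2 read ran from 0.181 to 0.24, 0.212 to 0.283 and 0.391 to 0.626.

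**Figure D4:**
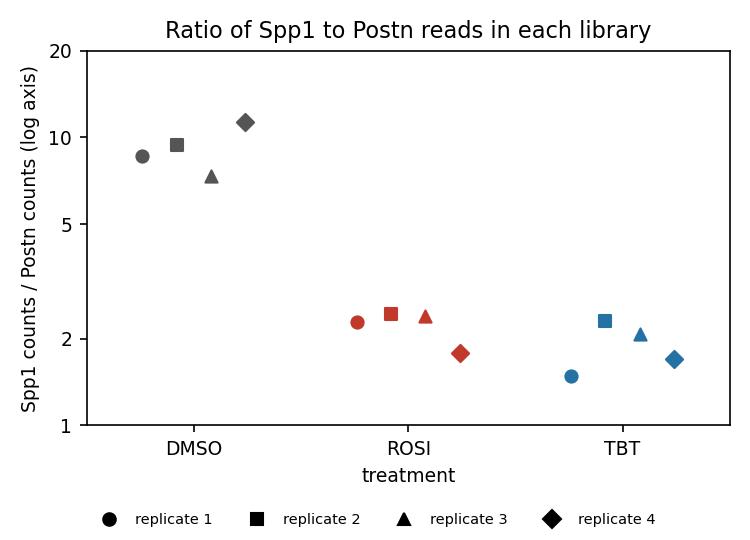
Spp1 counts divided by Postn counts in each of the 12 libraries (log axis), with marker shapes for replicates. The DMSO libraries lie at 7.37 to 11.3, and the ROSI (1.78 to 2.43) and TBT (1.49 to 2.30) libraries overlap.

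Genes with the most similar profiles were sought for Runx2, Spp1 and Postn among 10232 other genes of at least 5 CPM, by the root mean square difference of mean-centred log2 CPM over the 12 libraries. Nearest to Runx2 were Nudt13 (0.079), Ncam1 (0.097) and Foxo3 (0.10), where the median over all genes was 0.40. Scg2 (0.27), Clca1 (0.27) and Abi3bp (0.27) were nearest to Spp1 (median 0.96). Those 3 had log2 fold changes of -1.72, -1.88 and -1.58 in ROSI and of -0.69, -1.03 and -0.77 in TBT against DMSO. Zfp37 (0.21), AI607873 (0.23) and Prex2 (0.25) were nearest to Postn (median 0.71), with log2 fold changes of 0.98, 0.94 and 1.15 in TBT and of -0.07, -0.01 and 0.37 in ROSI.

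Around the 9 genes, 60 other osteogenic genes were listed by role, of which 48 were tested. The list mixes genes that promote bone formation with inhibitors such as Mgp, Enpp1, Sfrp1 and Twist1. Its counts therefore give no direction for bone formation. With ROSI 5 rose, 15 fell and 28 did not pass, and their median log2 fold change was -0.26, against 22.6% called and a median of 0.01 over all tested genes. With TBT 3 rose, 6 fell and 39 did not pass (18.8% called, against 15.2% of all genes; median -0.07 against -0.01). Between TBT and ROSI 16 were higher in TBT, 3 lower and 29 did not pass (39.6% called against 23.9%; median 0.36 against 0.02). The counts by role that follow stand against these shares of all tested genes called: 10% higher and 12.6% lower with ROSI, 8.22% and 7.03% with TBT, and 12.8% and 11.1% in TBT against ROSI.

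**Figure D5:**
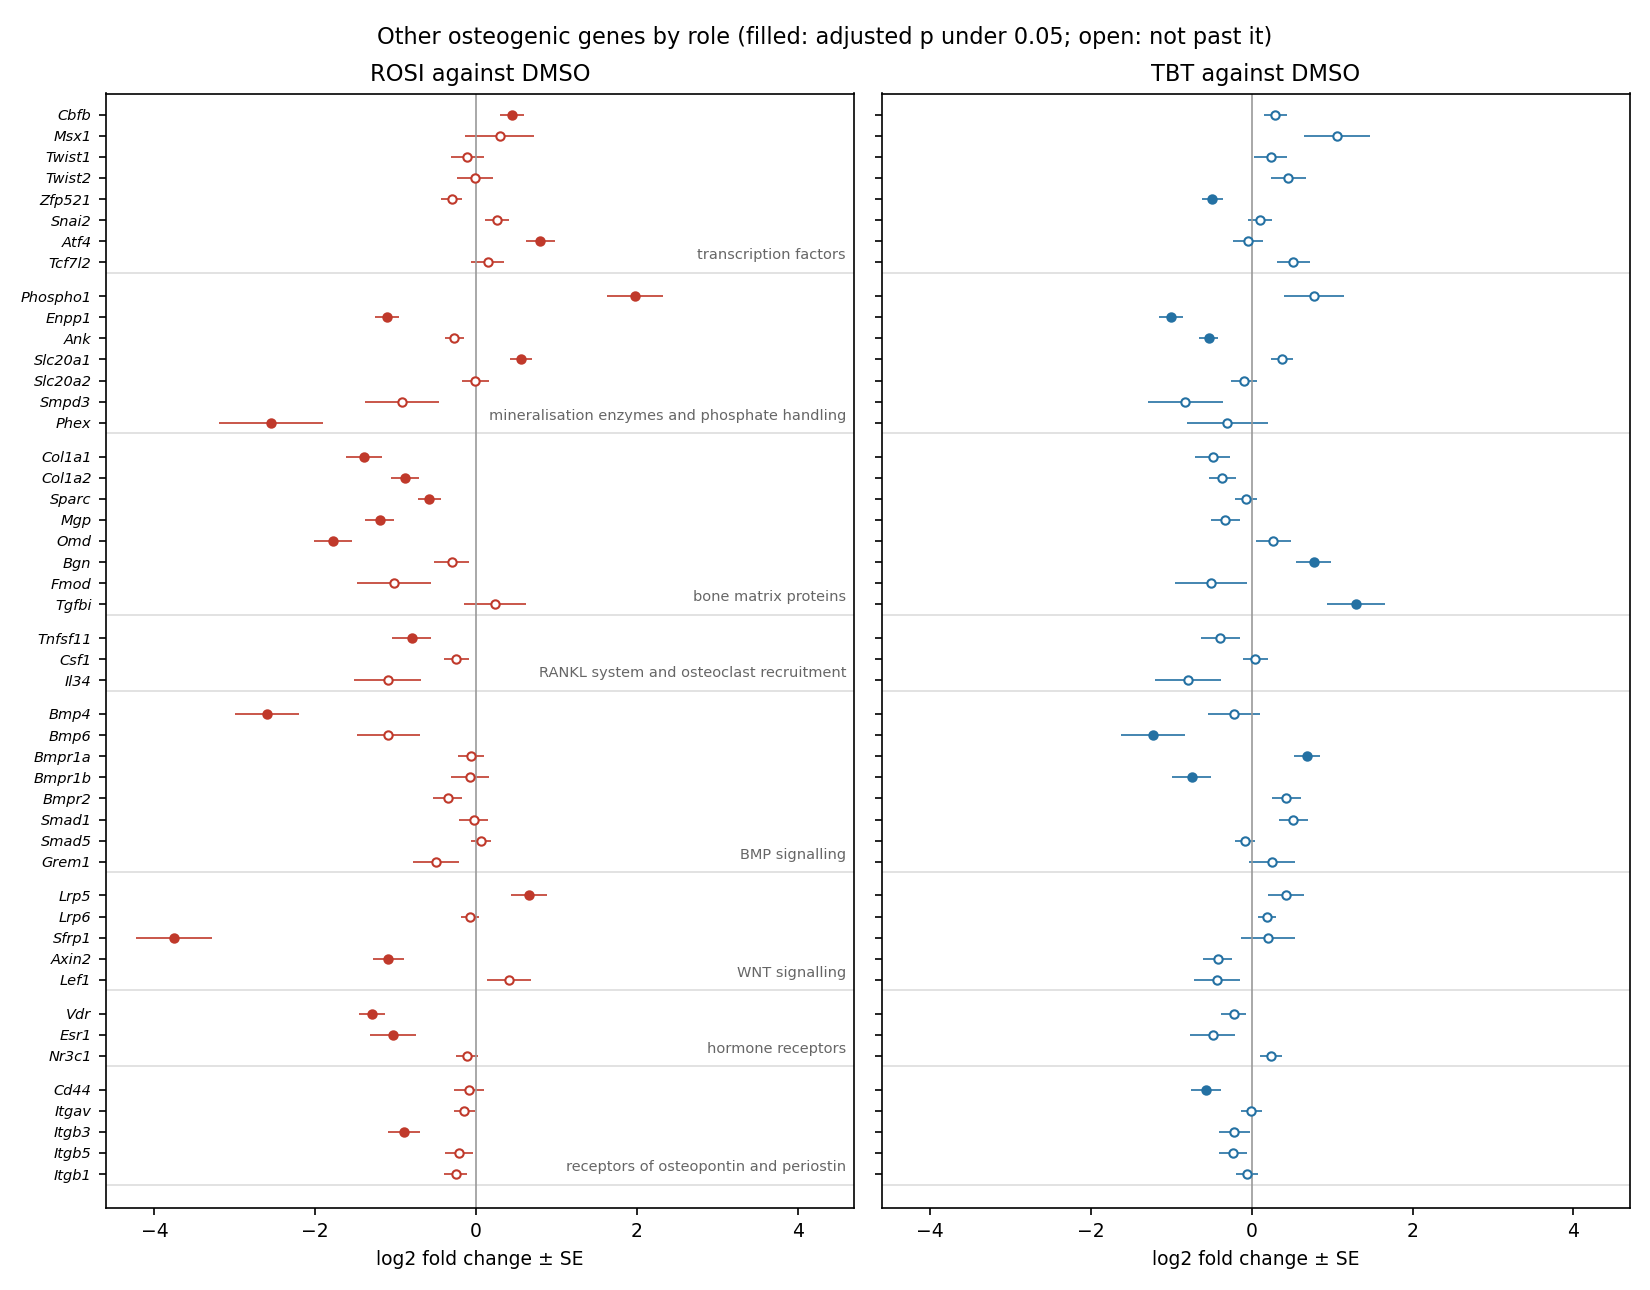
Log2 fold change ± SE of other tested osteogenic genes by role, for those reported here, for ROSI and TBT against the same DMSO libraries, filled where the edgeR adjusted p was under 0.05. With ROSI 5 of 8 bone matrix genes are filled on the lower side, and with TBT 0 are.

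Bone matrix genes were lower with ROSI in 5 of 8 cases, with 0 higher. Col1a1 and Col1a2, the chains of type I collagen, went from 147 ± 17.5 to 56.0 ± 17.9 CPM (log2 fold change -1.39 ± 0.22, edgeR adjusted p = 2e-04) and from 1120 ± 75.9 to 607 ± 148 CPM (-0.89 ± 0.17, edgeR adjusted p = 0.0012). Omd, osteomodulin, went from 43.4 ± 7.91 to 12.5 ± 2.24 CPM (-1.78 ± 0.24, edgeR adjusted p = 3.7e-05). Sparc, osteonectin, was at -0.58 ± 0.14 and Mgp, an inhibitor of calcification, at -1.20 ± 0.18 (edgeR adjusted p = 0.0059 and 1.3e-04). In TBT 0 of the 8 fell and 2 rose: Bgn, biglycan (0.77 ± 0.22, edgeR adjusted p = 0.026, named after its values were seen), and Tgfbi, a relative of Postn (1.30 ± 0.36, edgeR adjusted p = 0.024). For both genes the TBT and DMSO libraries overlapped. Tgfbi lost its call without any of DMSO replicates 2 to 4 or TBT replicates 1 to 3 (edgeR adjusted p of up to 0.073). Col1a1 (-0.48 ± 0.22), Col1a2 (-0.36 ± 0.17), Sparc (-0.07 ± 0.14) and Mgp (-0.33 ± 0.18) did not pass against DMSO. Between the ligands 7 of the 8 were higher in TBT, among them Omd (2.04 ± 0.24, edgeR adjusted p = 1.7e-05), Col1a1 (0.91 ± 0.22, edgeR adjusted p = 0.0078) and Mgp (0.87 ± 0.18, edgeR adjusted p = 0.0028). Sparc (0.51 ± 0.14, edgeR adjusted p = 0.015) lost this call without ROSI replicate 2 (0.053) or TBT replicate 3 (0.065), and Col1a2 (0.52 ± 0.17, edgeR adjusted p = 0.037) without DMSO replicate 3, ROSI replicate 1 or 2 or TBT replicate 1, 2 or 3 (up to 0.12).

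Among transcription factors, 2 of 9 rose and 1 fell with ROSI. Atf4, which serves amino acid supply as well as bone formation, went from 219 ± 44.8 to 380 ± 71.1 CPM (0.80 ± 0.18, edgeR adjusted p = 0.0038). With TBT 0 rose and 1 fell, Zfp521, a repressor of fat-cell commitment (-0.49 ± 0.13, edgeR adjusted p = 0.021). That call ended without DMSO replicate 1 or 2 or TBT replicate 2 (edgeR adjusted p of up to 0.072). Atf4 was the 1 factor that differed between the ligands (-0.85 ± 0.18 in TBT against ROSI, edgeR adjusted p = 0.0033). Twist1, which restrains RUNX2, was at 26.9, 24.7 and 31.3 CPM in DMSO, ROSI and TBT and passed in 0 of 3 comparisons. Msx2 was too low to test, with 7, 8 and 19 counts per group.

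Mineral handling genes moved both ways with ROSI, 2 of 7 higher and 2 lower. Enpp1, which makes the mineral inhibitor pyrophosphate, had 158 ± 15.5 CPM in DMSO, 73.3 ± 15.8 in ROSI (-1.11 ± 0.15, edgeR adjusted p = 3.4e-05) and 79.1 ± 6.05 in TBT (-0.999 ± 0.148, edgeR adjusted p = 4.8e-04). Between the ligands it differed by 0.11 ± 0.15 (edgeR adjusted p = 0.62). Phospho1, a phosphatase of matrix vesicles, went from 2.82 ± 1.68 to 12.0 ± 3.35 CPM with ROSI (1.98 ± 0.35, edgeR adjusted p = 4.4e-04) and was lower in TBT than in ROSI (-1.20 ± 0.33, edgeR adjusted p = 0.015). The latter call ended without ROSI replicate 1 (0.052). With TBT 2 of the 7 fell against DMSO, Enpp1 and Ank, a pyrophosphate transporter named after its values were seen (-0.53 ± 0.12, edgeR adjusted p = 0.0087). Phex, an endopeptidase of bone cells with 0.309 CPM in ROSI, was higher in TBT than in ROSI (2.25 ± 0.68, edgeR adjusted p = 0.024). This rests on 35 counts against 8, in overlapping libraries. The call ended without ROSI replicate 1 (edgeR adjusted p = 0.061) or 2 (0.064) and in a fit with a replicate block (0.064). It also ended on the deposited log2 values (limma adjusted p = 0.067). Phex passed the filter in 9 of the 12 fits with 1 library left out.

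Of the tested genes of the RANKL system, Tnfsf11, RANKL itself, was the 1 of 3 that fell with ROSI, from 8.81 ± 1.80 to 5.05 ± 1.12 CPM (-0.80 ± 0.24, edgeR adjusted p = 0.024), while in TBT Tnfsf11 was at 6.78 ± 1.78 CPM (edgeR adjusted p = 0.27). The ROSI call ended without DMSO replicate 2 or 3 or ROSI replicate 3 or 4 (edgeR adjusted p of up to 0.092) and in a fit with a replicate block (0.055). The decoy receptor Tnfrsf11b and its ligand Tnfsf11 were thus both lower in ROSI, each on calls that 1 library could end.

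Of 8 tested genes of the BMP pathway, a signal for bone formation, 1 fell with ROSI, a share like the 12.6% of all tested genes called lower. This was the ligand Bmp4, which went from 4.6 ± 1.21 to 0.678 ± 0.427 CPM (-2.60 ± 0.40, edgeR adjusted p = 1.4e-04), 96 counts over the DMSO libraries and 17 over the ROSI libraries. In TBT Bmp4 was at 3.86 ± 0.83 CPM, near its DMSO level (-0.22 ± 0.32, edgeR adjusted p = 0.67) and above ROSI (2.38 ± 0.41, edgeR adjusted p = 5.6e-04). With TBT 1 of the 8 rose and 2 fell. The receptor Bmpr1a rose from 223 ± 18.9 to 359 ± 87.7 CPM (0.69 ± 0.16, edgeR adjusted p = 0.011), and 2 were lower, Bmpr1b, named after its values were seen (-0.75 ± 0.24, edgeR adjusted p = 0.047), and Bmp6 (-1.23 ± 0.40, edgeR adjusted p = 0.047). For Bmpr1b and Bmp6 the TBT and DMSO libraries overlapped. The Bmp6 call ended on leaving out any library except TBT replicate 1 or 4 (up to 0.14). Between the ligands 4 of 8 were higher in TBT and 0 lower.

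Of 5 tested WNT genes, 1 was higher and 2 were lower in ROSI than in DMSO. Sfrp1, a secreted WNT inhibitor, went from 9.80 ± 3.00 to 0.685 ± 0.359 CPM (-3.76 ± 0.47, edgeR adjusted p = 1.9e-05), and Lrp5, a WNT co-receptor, was higher (0.66 ± 0.22, edgeR adjusted p = 0.040). Axin2, a WNT target named after its values were seen, was the other that fell, from 16.8 ± 3.34 to 7.89 ± 0.50 CPM (-1.09 ± 0.19, edgeR adjusted p = 4.1e-04), and it was higher in TBT than in ROSI (0.67 ± 0.19, edgeR adjusted p = 0.021). Lrp5 lost its call without DMSO replicate 1, 2 or 4 or ROSI replicate 1, 3 or 4 (up to 0.12). Sfrp1 stood at 11.1 ± 5.46 CPM in TBT, above ROSI by 3.96 ± 0.47 (edgeR adjusted p = 1.8e-05). In TBT against DMSO the edgeR adjusted p of the 5 ran from 0.12 (Axin2) to 0.71 (Sfrp1). Lef1, a transcription factor at the end of the WNT path, was lower in TBT than in ROSI (-0.84 ± 0.28, edgeR adjusted p = 0.039), but not without ROSI replicate 1, 3 or 4 or TBT replicate 2 or 3 (up to 0.11).

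Of 3 tested hormone receptors 2 fell with ROSI, Vdr and the estrogen receptor Esr1 (named after its values were seen, in overlapping libraries, -1.03 ± 0.29, edgeR adjusted p = 0.014). Vdr, the vitamin D receptor, went from 118 ± 7.51 to 48.2 ± 8.70 CPM (-1.29 ± 0.16, edgeR adjusted p = 1.5e-05) and was at 101 ± 21.5 in TBT (1.07 ± 0.16 above ROSI, edgeR adjusted p = 1.6e-04). Pth1r, the parathyroid hormone receptor of osteoblasts, was too low to test, with 7, 4 and 4 counts per group. Among 5 receptors of osteopontin and periostin, Itgb3 fell with ROSI (-0.89 ± 0.20, edgeR adjusted p = 0.0033) and was higher in TBT than in ROSI (0.68 ± 0.20, edgeR adjusted p = 0.023). The second of these calls ended without ROSI replicate 2 or 4 or TBT replicate 2 or 3 (up to 0.073). Cd44 was lower in TBT than in DMSO (-0.57 ± 0.19, edgeR adjusted p = 0.049), but leaving out any library except DMSO replicate 3 or 4 or TBT replicate 4 ended the call (up to 0.16). Itgav stood at 202, 183 and 201 CPM in DMSO, ROSI and TBT and passed in 0 of 3 comparisons.

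Other cells that make Spp1 or share its matrix genes were looked for by their markers. Osteoclasts and macrophages both express Spp1. A list of 7 osteoclast genes summed to 5.15 to 9.74 CPM in DMSO, 3.21 to 6.95 in ROSI and 3.04 to 6.43 in TBT, and Ctsk was the 1 of them tested. Defining osteoclast genes were near 0: Acp5 had 2, 3 and 1 counts per group and Ocstamp 3, 1 and 0. A list of 8 macrophage and leukocyte genes summed to 23.5 to 27.1, 18.7 to 30.3 and 18.8 to 34.6 CPM, with Tyrobp at 0 in all 12 libraries and Ptprc at 26, 4 and 9 counts in DMSO, ROSI and TBT. Itgam had 15, 1 and 6 counts, Emr1 12, 0 and 8, and Lyz2 8, 11 and 8. These genes were too low to test, and such counts in DMSO stand on the higher background given above. Of the 3 tested genes of that list, Cd68, a lysosomal protein, was higher in ROSI than in DMSO (14.3 ± 3.10 against 8.49 ± 2.58 CPM, 0.73 ± 0.23, edgeR adjusted p = 0.031). Cd14 was at 12.1, 6.59 and 11.3 CPM and Csf1r at 1.84, 1.25 and 0.792, and neither passed in any of the 3 comparisons. For Cd14 each ROSI library was below each DMSO library (edgeR adjusted p = 0.062), as for 15.4% of all tested genes. Smooth muscle genes (4 listed) summed to 704 to 907 CPM in DMSO, 334 to 383 in ROSI and 618 to 1080 in TBT, and stromal progenitor genes (6 listed) to 3050 to 4070, 1340 to 1520 and 2400 to 3260. Chondrocyte genes (5 of 7 tested) summed to 195 to 222, 127 to 178 and 194 to 233. Most of this came from Sox5 (127, 77.6 and 149 CPM) and Sox9 (60.9, 56.1 and 51.1). The cartilage matrix genes Acan (4, 6 and 5 counts per group) and Col2a1 (12, 8 and 20) were too low to test. Endothelial genes (2 of 4 tested) summed to 6.89 to 9.36, 2.26 to 4.42 and 4.44 to 7.49. Of all tested genes, 10% were called higher and 12.6% lower with ROSI, and 8.22% and 7.03% with TBT, against DMSO. In TBT against ROSI the shares were 12.8% and 11.1%. In ROSI against DMSO, 3 of 4 smooth muscle and 4 of 6 stromal progenitor genes tested were lower, the direction of Spp1 and the collagens. On short lists, 1 of 5 chondrocyte and 1 of 2 endothelial genes were lower. Of 3 tested macrophage genes 1 was higher, Cd68, while the untested Ptprc, Itgam and Emr1 had fewer counts in ROSI than in DMSO. In TBT against DMSO, the smooth muscle gene Myh11 was higher (2.08 ± 0.33, edgeR adjusted p = 7.9e-04), and 2 of 6 stromal progenitor genes and 1 of 5 chondrocyte genes were lower. In TBT against ROSI, where Spp1, Postn, Alpl and 7 of 8 bone matrix genes were higher, so were 4 of 4 smooth muscle, 4 of 6 stromal progenitor and 1 of 2 endothelial genes, while 1 of 5 chondrocyte genes was higher and 1 lower. The part of these cell type markers in the results was not tested.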

How the data were processed

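RNA-seq was analysed in 12 libraries of mouse marrow mesenchymal stem cells, 4 each with DMSO, rosiglitazone and tributyltin. Per the labels' protocols, ribosomal RNA was removed and single 50 nt reads without strand were made on a SOLiD sequencer. The authors deposited raw read counts per gene symbol and, per the file's name, regularized-log values on a log2 scale. The submitters' processing notes name mm9, FastQC, SAMtools and DESeq2 without versions, while aligner, counter and annotation were not given in the sources used here. Columns were matched to libraries by title.

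Counts were fitted in R 4.3.3 with edgeR 4.0.16 (filterByExpr, TMM, glmQLFit and glmQLFTest over 3 groups in 1 model). P-values were adjusted by Benjamini-Hochberg over 12323 genes at a threshold of 0.05, and SE is the log2 fold change over the root of F. Profiles for likeness used log2 CPM with a prior count of 2. The 9 members and all lists were chosen with earlier results of these data known. From the other osteogenic genes, those with the smallest p per role, direction and comparison and 12 fixed genes (Col1a1, Col1a2, Sparc, Mgp, Tnfsf11, Bmp4, Msx2, Twist1, Pth1r, Enpp1, Cd44, Itgav) are named. 1 listed gene is counted in the totals and otherwise not reported here. Alternatives used DESeq2 1.42.0, limma 3.58.1 on the deposited log2 values, other scalings and filters, a replicate block, 2 groups, a threshold of 0.01 and each library left out. For single genes, they were examined for the members and the genes under the naming rule. Genes named after their values were seen and cell type markers were not followed through them. On simulated data the fits recovered 22.7% to 27.3% of 1.5-fold changes over the 3 comparisons. They recovered 60.6% to 79.1% of 2-fold and 93.8% to 98.5% of 4-fold changes. Changes near 1.5-fold were thus mostly missed. Within groups the lowest chi-square per degree of freedom between 2 libraries was 4.66, so none was a copy.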

Additional observations from a re-analysis of the deposited data

Results flagged for a closer look

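A single library far from the other 3 of its group (its gap to the nearest, over the group's whole range, above Dixon's 95% critical value) was found in 6 of 156 groups examined, where chance flags about 1 in 20. Among the osteoblast genes this was Spp1 in TBT, at 118 CPM in replicate 4 against 207 to 224 in the others. TBT replicate 2 stood apart for Cbfb (113 CPM against 144 to 146), Smad1 (78.0 against 63.3 to 64.0) and Lrp6 (1000 against 1100 to 1120). Lef1 was at 9.65 CPM in TBT replicate 1 against 4.92 to 5.44, and Twist2 at 10.6 CPM in ROSI replicate 2 against 6.82 to 7.27.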

How the results depend on the processing

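Spp1 and Postn kept their direction and call in each comparison in which they were called, under each alternative run. The count of osteoblast genes called in ROSI against DMSO (2) was 1 with a mean of at least 5 CPM, a filter that Tnfrsf11b does not pass, and 1 at an adjusted p under 0.01, and it ranged from 1 to 3 with 1 library left out. It was 2 throughout for TBT against DMSO and ranged from 2 to 4 for TBT against ROSI with 1 library left out. Of the other osteogenic genes, the 9 called in TBT against DMSO were 4 with the replicate block and 2 under 0.01, and ranged from 4 to 17 with 1 library left out, the highest without TBT replicate 4. The 19 called in TBT against ROSI were 10 under 0.01 and ranged from 12 to 24, and the 20 called in ROSI against DMSO ranged from 16 to 23. Values near 0 changed sign without passing any test when 1 library was left out: Postn in ROSI ranged from -0.16 to 0.10, and in TBT against DMSO Runx2 ranged from -0.133 to 0.0708, Alpl from -0.0177 to 0.291 and Itgav from -0.0978 to 0.0607. Twist1 (-0.296 to 0.0637) and Cd44 (-0.194 to 0.0349) in ROSI and Enpp1 in TBT against ROSI (-0.0225 to 0.178) did likewise. Itgav in TBT was 0.0023 without a filter and 0.011 on the deposited log2 values. Libraries of the same replicate number shared few deviations: 2 of 12 same-number pairs had deviations correlated above 0.1. Only 1 of 12 libraries correlated best with its own number. With 4 libraries per group this cannot exclude batches shared by number. Rn45s was higher in replicates 1 and 2 (5.21% and 6.18% in DMSO, 9.27% and 5.69% in ROSI) than in 3 and 4 (3.62% and 2.64%, 2.88% and 1.36%). In TBT it was highest in replicate 4. The replicate block changed no call of the 5 osteoblast genes, and called 1160 genes in TBT against DMSO where 1879 were called without it. Without TBT replicate 4, 4124 genes were called in TBT against DMSO. In TBT against ROSI 4826 were called without that library and 2940 with it. The shares of all genes called in the TBT comparisons thus depend on that library. Upper-quartile scaling moved the share of higher calls in TBT against DMSO from 53.9% to 39.6%, with Spp1 and Postn called as before. The cause of these changes was not tested. Counts per library limit Tnfrsf11b and the 4 untested genes.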
